A study of Mus musculus with 207 samples.

Results

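The Hox genes encode homeodomain transcription factors that give embryonic cells their position along the head-to-tail axis. They were taken here as every probe whose annotated symbol was Hox, a cluster letter and a number, which gave 57 probes of 38 genes among 45281 probes and 19057 named genes. The Hoxa cluster on chromosome 6 was represented by 10 genes, the Hoxb cluster on chromosome 11 by 10, the Hoxc cluster on chromosome 15 by 9 and the Hoxd cluster on chromosome 2 by 9.

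Within a cluster, genes are numbered by paralogue group, and genes of low number are switched on earlier and nearer to the head than genes of high number, an order known as collinearity. In the gut, Hox genes act mainly in the mesoderm that forms smooth muscle and connective tissue, where they work with cofactors of the Meis, Pbx and Pknox families, and part of them is also transcribed in the epithelium, where the Cdx factors act. Group 13 genes are the most posterior and pattern the hindgut, and genes of the Hoxd cluster are transcribed in the bud that becomes the cecum.

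The samples were cecal RNA of mice of the Collaborative Cross breeding population, a set of lines under inbreeding from 8 founder strains. A single Illumina BeadChip array was used for each of 205 mice, 49.3% of them labelled female and 50.7% male, while 2 further mice had no usable label of sex and entered no comparison. Sex was the only group in the labels, and mice whose identification opens with the same number were treated as a breeding line, so that 92 lines had mice of both sexes (185 mice). The number that ends the identification was below 100 in a low series of 114 mice and above it in a high series of 90, with 1 mouse in neither because its ending number had another form, and all mice of a line fell in the same series. The sources used here do not state what these numbers mean. The RNA came from cells that a chelating buffer released from the rinsed cecum, and the mice were described as adult with no age given.

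All values are log2 of the deposited linear intensity, with intensities under 16 set to 16. A probe was called above background when its mean over the 205 mice was over the 95th percentile of the means of 1543 probes of olfactory, vomeronasal and taste receptor genes, a log2 level of 6.33, and a gene was represented by its brightest probe. Brightness depends on the probe as well as on the transcript, so levels of different genes were set against this threshold and not against each other. On 8 arrays (6 female, 2 male) the deposited intensities reached below 0. The mean of the receptor probes on them lay between 5.25 and 6.39 (median 6.02), against 5.97 to 6.56 (median 6.15) on the other 197, and the main counts and the slopes that change are therefore also given without these 8. All 10 epithelial markers and 18 of 19 smooth muscle, fibroblast and matrix markers were above background, as were 6 of 10 small intestinal markers.

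The sequences upstream of the genes on which the results turn are shown first, as 250 bases before the annotated start in RefSeq (mouse GRCm38.p6). Hoxa7 (chr6:52218574-52218823, minus strand), Hoxb4 (chr11:96318017-96318266, plus strand) and Hoxd4 (chr2:74721728-74721977, plus strand) come from different clusters and varied together between mice. Hoxd10 (chr2:74691641-74691890, plus strand) varied with the stromal markers, and Hoxb8 (chr11:96281655-96281904, plus strand) was below background between neighbours that were above it. Capitals mark matches, on either strand, to TTTATNG (a form of the sites bound by Cdx and posterior Hox proteins), TGATNNAT (a joint Pbx and Hox site) or TGACAGNT (a Meis and Pknox site), and no marked match overlaps another.
Hoxa7: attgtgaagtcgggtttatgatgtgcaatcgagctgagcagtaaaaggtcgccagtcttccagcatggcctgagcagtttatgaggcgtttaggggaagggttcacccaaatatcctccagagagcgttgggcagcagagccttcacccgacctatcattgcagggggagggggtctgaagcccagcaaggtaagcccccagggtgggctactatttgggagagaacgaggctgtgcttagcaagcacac
Hoxb4: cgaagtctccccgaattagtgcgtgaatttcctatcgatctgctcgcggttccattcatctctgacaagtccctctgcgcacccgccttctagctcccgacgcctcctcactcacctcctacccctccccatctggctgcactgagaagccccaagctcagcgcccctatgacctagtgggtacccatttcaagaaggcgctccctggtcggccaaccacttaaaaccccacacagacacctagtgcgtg
Hoxd4: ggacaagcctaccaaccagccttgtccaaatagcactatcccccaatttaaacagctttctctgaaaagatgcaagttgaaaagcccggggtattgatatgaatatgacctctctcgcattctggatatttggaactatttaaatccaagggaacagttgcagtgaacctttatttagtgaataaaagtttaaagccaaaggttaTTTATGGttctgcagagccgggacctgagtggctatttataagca
Hoxd10: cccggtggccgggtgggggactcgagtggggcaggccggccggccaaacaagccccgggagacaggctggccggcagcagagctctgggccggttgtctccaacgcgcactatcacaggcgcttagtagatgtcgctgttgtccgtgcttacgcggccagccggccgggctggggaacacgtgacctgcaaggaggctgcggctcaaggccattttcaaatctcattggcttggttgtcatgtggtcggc
Hoxb8: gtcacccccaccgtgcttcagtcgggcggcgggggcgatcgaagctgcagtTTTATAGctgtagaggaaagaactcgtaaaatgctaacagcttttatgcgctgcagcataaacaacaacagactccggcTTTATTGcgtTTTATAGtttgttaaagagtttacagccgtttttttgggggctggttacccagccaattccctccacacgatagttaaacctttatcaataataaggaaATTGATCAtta

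Of 24 such windows for 22 of the 38 genes, 2 held TTTATNG, 4 held TGATNNAT and 1 held TGACAGNT, against 9.81%, 7.68% and 4.10% of all 32851 windows of this length. Hoxb8 held 3 matches to TTTATNG and 1 to TGATNNAT, and Hoxd4 held 1 to TTTATNG. The windows of Hoxa7, Hoxb4 and Hoxd10 held none of these letters. The Hox windows had a median of 12.5 CG dinucleotides and 58.6% G and C, against 6.0 and 52.4% over all windows. The window of Hoxa13 had 35 CG dinucleotides, that of Hoxd13 had 31, that of Hoxd10 had 20 and that of Hoxd4 had 3.

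In the cecum, 24 of 38 Hox genes (63.2%) and 30 of 57 Hox probes (52.6%) were above background, against 59.8% of all named genes and 44.8% of all probes. The share of Hox genes was therefore close to that of all genes. Only 9 Hox genes lay 1 log2 unit or more over the threshold, and 7 were over it in all 205 mice (Hoxa7, Hoxa13, Hoxb4, Hoxb5, Hoxb6, Hoxb7 and Hoxc6). By cluster, 8 of 10 Hoxa genes, 7 of 10 Hoxb genes, 3 of 9 Hoxc genes and 6 of 9 Hoxd genes were above background. The same 24 genes were above background without the 8 arrays and within each of the number series.

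**Figure D1:**
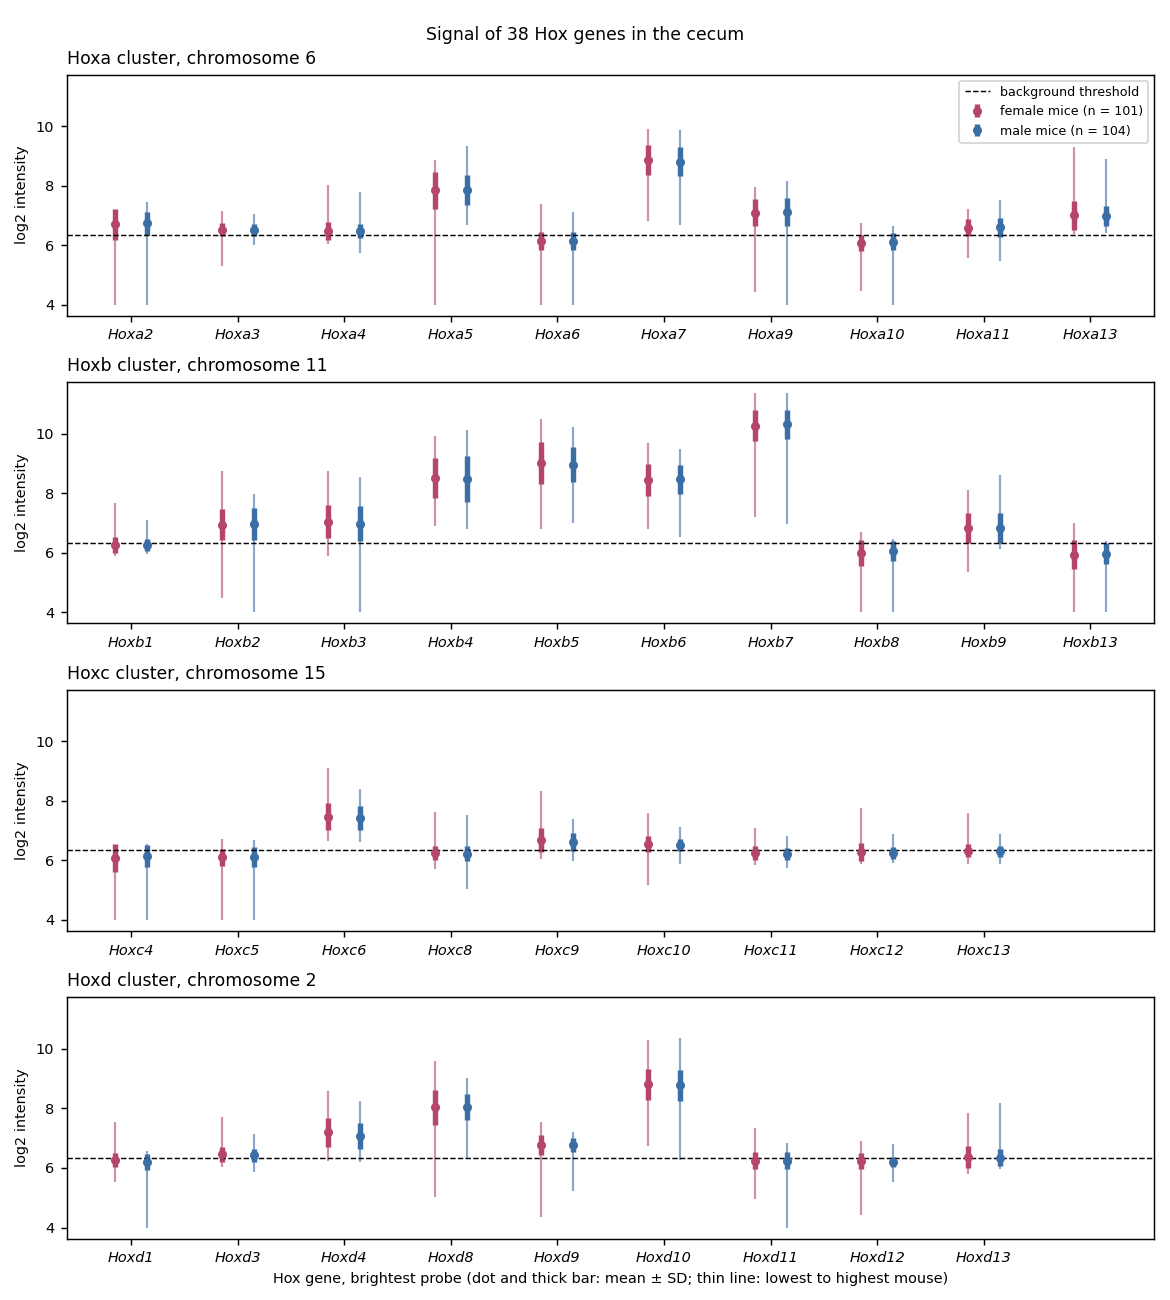
Log2 intensity (vertical axis) of the brightest probe of each of 38 Hox genes, with a panel for each cluster and genes in paralogue order. Dots with thick bars are means ± SD of the female and male mice (205 in all), thin lines run from the lowest to the highest mouse, and the dashed line is the background threshold of 6.33, which Hoxb4, Hoxb5, Hoxb6 and Hoxb7 exceeded in every mouse while Hoxb8 exceeded it in 11.

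Along the paralogue axis the genes above background were spread from group 2 to group 13. Neither of the measured group 1 genes (Hoxb1, Hoxd1) and neither of the measured group 12 genes (Hoxc12, Hoxd12) was above the threshold. All measured genes of groups 2, 3, 7 and 9 were above it. Of the genes of groups 1 to 8, 15 of 22 were above background, and of groups 9 to 13, 9 of 16.

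From Hoxb2 to Hoxb7 the Hoxb genes formed an unbroken stretch above background. Hoxb1, at the anterior end of the cluster, was below it, with a mean of 6.26 and 52 mice over the threshold. Hoxb7, a central gene, had a lowest, median and highest level of 7.19, 10.30 and 11.36 in females and 6.95, 10.32 and 11.36 in males, with a mean of 10.29 ± 0.51 (SD, n = 205). The sexes overlapped over nearly the whole range, and the second probe of the gene was over the threshold in every mouse as well and correlated with the first (r = 0.780 over 205 mice, 0.847 without the 8 arrays, as a description).

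Hoxb5, which in the mouse is linked to the migration of enteric neuron precursors, had 6.80, 9.17 and 10.50 in females and 7.02, 9.03 and 10.21 in males (lowest, median and highest). Hoxb4, known for its role in blood stem cells, had 6.91, 8.59 and 9.94 in females and 6.78, 8.60 and 10.13 in males. Hoxb6 had 6.80, 8.50 and 9.70 in females and 6.53, 8.53 and 9.49 in males. Each of these genes spanned about 3 log2 units or more between mice, with both sexes over the same range.

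Towards the anterior end, Hoxb3 averaged 7.01 ± 0.57 and Hoxb2, which patterns the hindbrain, averaged 6.95 ± 0.52 (SD, n = 205 each). Towards the posterior end, Hoxb8 averaged 6.03 ± 0.39 and was over the threshold in 11 mice, although it lies between Hoxb7 and Hoxb9, which averaged 6.83 ± 0.51 and was over it in 173 mice. Hoxb13, the last gene of the cluster and in the mouse a marker of the posterior colon and prostate, was below the threshold as well, with a mean of 5.96 ± 0.41.

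In the Hoxa cluster, Hoxa7 stood farthest above the threshold. Its lowest, median and highest levels were 6.80, 8.86 and 9.91 in females and 6.68, 8.86 and 9.85 in males. Hoxa5, which in the mouse is needed for the lung and for the maturation of the gut, had 4.0, 7.88 and 8.85 in females, where 4.0 is the floor and was reached on 1 of the 8 arrays, and 6.67, 7.85 and 9.32 in males. The sexes overlapped in both genes, and without the 8 arrays the lowest value of Hoxa5 was 6.49.

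Hoxa9 averaged 7.10 ± 0.46, Hoxa2 6.72 ± 0.45, Hoxa11 6.59 ± 0.30, Hoxa3 6.52 ± 0.21 and Hoxa4 6.47 ± 0.27 (SD, n = 205 each). Hoxa6 (6.14) and Hoxa10 (6.10) were not above background although their neighbours in the cluster were. Hoxa13, with Hoxd13 the main hindgut patterning gene, had 6.39, 6.86 and 9.30 in females and 6.41, 6.94 and 8.89 in males, and without the 8 arrays its highest value was 8.22.

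The Hoxc cluster was the least represented. Hoxc6 had 6.66, 7.43 and 9.10 in females and 6.63, 7.39 and 8.40 in males, with every mouse over the threshold. Hoxc9 averaged 6.65 ± 0.35 and Hoxc10 6.53 ± 0.24, and the other 6 measured genes of the cluster (Hoxc4, Hoxc5, Hoxc8, Hoxc11, Hoxc12 and Hoxc13) were not above background. Hoxc13 was the closest to the threshold among them, with a mean of 6.31 and 72 mice (35.1%) over it.

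In the Hoxd cluster, Hoxd10 had 6.74, 8.79 and 10.31 in females and 6.28, 8.72 and 10.36 in males, over the threshold in 204 of 205 mice. Hoxd8 had 5.04, 8.04 and 9.59 in females and 6.33, 8.09 and 9.02 in males. Hoxd4 had 6.22, 7.22 and 8.57 in females and 6.19, 7.07 and 8.26 in males. All 3 genes overlapped widely between the sexes.

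Hoxd9 averaged 6.78 ± 0.29 and Hoxd3 6.44 ± 0.23. Hoxd13, the gene at the posterior end, averaged 6.36 ± 0.33, which was the mean closest to the threshold among the genes above it, and only 87 mice (42.4%) were over it. Hoxd13 dropped out, leaving 23 genes, when the 99th percentile of the receptor probes (6.44) was used. Hoxd11 (6.25), Hoxd12 (6.21) and Hoxd1 (6.22) were below the threshold.

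Several genes had more than 1 probe, and these did not always move together. The second probes of Hoxa9 and Hoxd9 correlated with the brightest at r = 0.711 and 0.710 (0.846 and 0.631 without the 8 arrays). For Hoxa2 the value was 0.218 with all arrays and 0.600 without the 8, for Hoxa13 it was -0.0237 and 0.300, and for Hoxb3 it was 0.0494 and 0.209. These are descriptions over 205 or 197 mice, and results for Hoxa13 and Hoxb3 hold for the probe that was used. The same limit applies to Hoxc10, whose second probe had r = 0.207 (0.118 without the 8), and to Hoxa3, whose other 3 probes had r between -0.267 and -0.0108 (-0.256 and -0.155 without the 8), and these other probes were below background. Of the genes beside the clusters, the homeobox gene Evx1 next to Hoxa13 averaged 6.72 and was above background, while Hottip (5.96), a long noncoding RNA of the same region, and Evx2 (6.23), next to Hoxd13, were not.

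The comparison of the sexes asked whether Hox transcripts differed between female and male cecum. None of the 38 Hox genes passed limma's test at an adjusted p under 0.05, where 16 of 45281 probes (0.0353%) did and 472 had an unadjusted p under 0.05. Among the 24 genes above background the female minus male differences lay between -0.05 and 0.13 on the log2 scale. The highest was that of Hoxd4, which patterns the hindbrain and neck of the embryo, at 0.13 ± 0.06 (SE, 95% interval 0.00299 to 0.257), with an unadjusted p of 0.0449 and an adjusted p of 0.9996 (limma), and it was the only Hox gene with an unadjusted p under 0.05. For Hoxb7 the difference was -0.05 with an interval of -0.19 to 0.09. No Hox gene was called without the 8 arrays, where 0.0707% of all probes were, or without 4 mice whose Xist and Y-linked transcripts did not match the labelled sex.

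Stromal content was read from a score, the mean of the standardised levels of 18 smooth muscle, fibroblast and matrix markers above background, scaled to an SD of 1 over mice. The lowest, median and highest scores were -4.16, -0.07 and 3.90 in females and -2.41, -0.04 and 2.45 in males, and the lowest value was from 1 of the 8 arrays. Limma was fitted for each probe on the score and sex. In RNA pooled from released cells, fewer cells of a type and less RNA per cell cannot be told apart. The score describes the cells that the buffer released and not the whole cecum.

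Hoxd10 had the steepest slope of the 38 genes, 0.25 ± 0.03 log2 units per SD of the score (SE, adjusted p = 1.41e-10, limma, n = 205), and 0.26 ± 0.03 (adjusted p = 2.78e-12) without the 8 arrays. It was followed by Hoxd8 of the same cluster at 0.16 ± 0.03 (adjusted p = 3.39e-04), which came to 0.11 ± 0.03 (adjusted p = 0.0295) without the 8 arrays. Hoxd9, between them, rose by 0.07 ± 0.02 with all arrays and by 0.07 ± 0.01 without the 8. Outside the Hoxd cluster, Hoxc10 rose by 0.09 ± 0.02 and Hoxa11 by 0.07 ± 0.02, and both passed the test without the 8 arrays as well, each with a slope of 0.07.

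As a count, 9 of 38 Hox genes (23.7%) rose with the stromal score and none fell, where 28.1% of all probes rose and 0.629% fell. Of these 9, 6 were among the 24 genes above background, where 19.4% of probes above background rose. The slope of Hoxa2 (0.09, adjusted p = 0.0171) became -0.01 (adjusted p = 0.796) without the 8 arrays, and those of Hoxa10, Hoxc5 and Hoxd12, which are below background, were also no longer called. Without the 8 arrays, 6 Hox genes (15.8%) rose, where 2.14% of all probes did, namely Hoxa11, Hoxc9, Hoxc10, Hoxd8, Hoxd9 and Hoxd10. All 6 are among the 24 genes above background, and 4.63% of all probes above background rose in that fit. Hoxb8 then fell (-0.05, adjusted p = 0.00311), where 1.68% of all probes fell.

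The median slope of the 24 genes above background was 0.04 with all arrays, against 0.03 for all 20301 probes above background, and 0.00499 without the 8 arrays. Among the Hoxb genes above background, slopes lay between -0.03 and 0.08 and none was called. Those of Hoxa7 (-0.00), Hoxa13 (-0.03) and Hoxd13 (-0.03) were not called either, with 95% intervals shown in the plot of slopes.

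**Figure D2:**
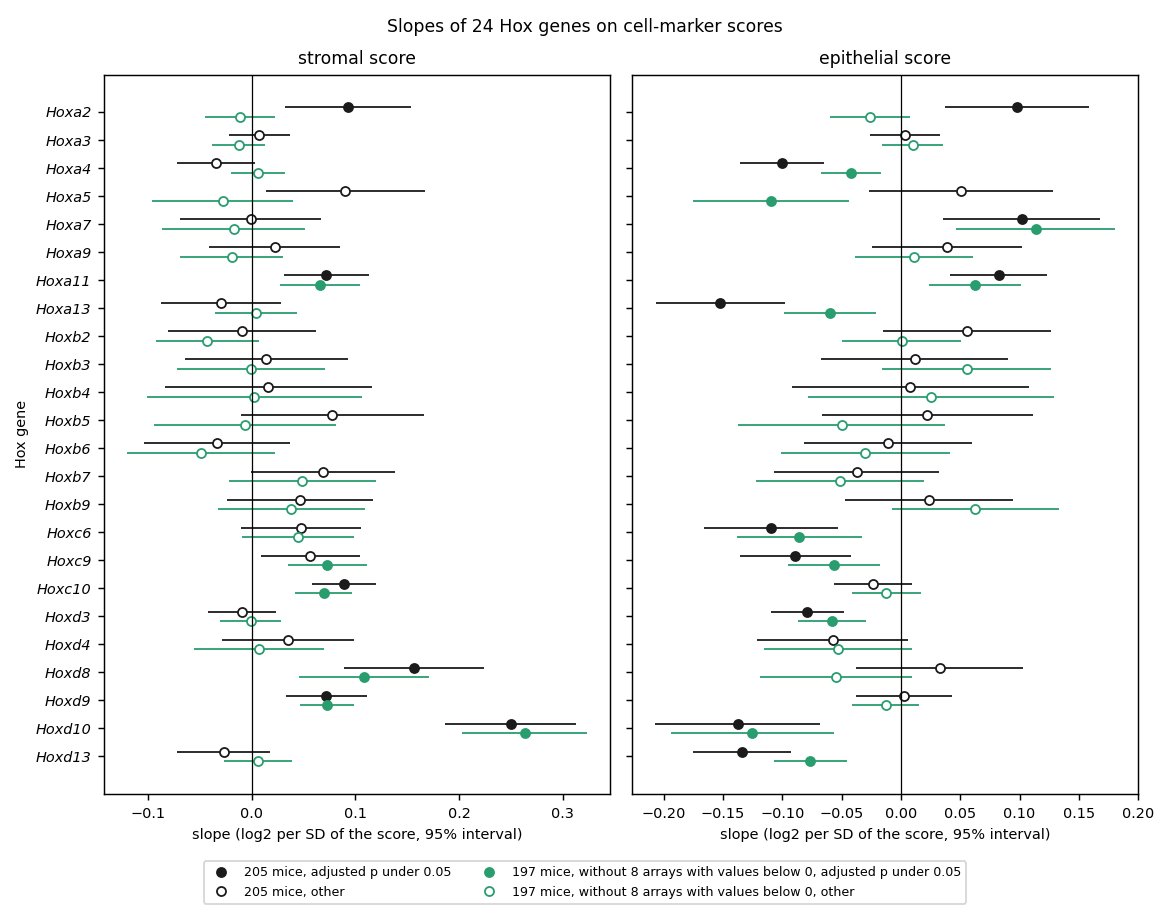
Slopes (horizontal axis, log2 units per SD of the score, with 95% intervals) of the 24 Hox genes above background on the stromal score (left) and the epithelial score (right), for all 205 mice (black) and for 197 mice without the 8 arrays (green). Filled points had an adjusted p under 0.05, and Hoxd10 lies farthest to the right on the stromal score at 0.25 and 0.26.

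Over line means the relation of Hoxd10 to the stromal score was r = 0.479 and rho = 0.519 (92 lines, permutation p = 1e-05 for each, the smallest that 100000 permutations can give, Benjamini-Hochberg adjusted p = 4e-04 and 2e-04 over 120 relations of 24 genes with 5 scores). It was 0.546 without the 2 lines farthest in the score, 0.574 over the 85 lines without the 8 arrays, 0.431 over 51 lines of the low number series and 0.520 over 41 lines of the high number series. With smooth muscle markers alone r was 0.477, and with fibroblast and matrix markers alone it was 0.284. Hoxc10 gave r = 0.409 and rho = 0.310 (permutation p = 8e-05 and 0.00277, adjusted p = 0.00137 and 0.0195), with 0.372 without the 2 lines, 0.366 without the 8 arrays, 0.563 in the low series and 0.194 in the high series. Hoxc9 had r = 0.148 over 92 lines (permutation p = 0.160, adjusted p = 0.386) and was not called. Its r was 0.373 over the 85 lines (permutation, adjusted p = 0.00425), 0.342 in the low series and -0.093 in the high series. For Hoxd8 r was 0.223 (permutation p = 0.0327, adjusted p = 0.140) and rho 0.115 (p = 0.273, adjusted p = 0.537), so its relation was not called over line means. That of Hoxa11 with the whole score was not called either (r = 0.202, permutation p = 0.0530, adjusted p = 0.210). With fibroblast and matrix markers alone Hoxa11 was called (r = 0.293, permutation, adjusted p = 0.033), and with smooth muscle markers alone r was 0.093. Hoxd9 had r = 0.272 (permutation p = 0.00979, adjusted p = 0.0545) with 92 lines and 0.397 (permutation p = 1.8e-04, adjusted p = 0.00196) over the 85 lines. With smooth muscle markers alone Hoxd9 had r = 0.360 (permutation, adjusted p = 0.00676), and with fibroblast and matrix markers alone 0.020.

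Markers of other cell types moved with the same score. All 6 enteric neuron and glia markers above background rose with it (4 without the 8 arrays, among them Ret and Stmn2), as did 3 of 9 endothelial markers (1 without the 8) and 1 of 3 adipocyte markers. Their part in the Hox slopes was not tested. With the epithelial score as a covariate, the slope of Hoxd10 was 0.28 ± 0.03.

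The epithelial score, from 10 markers such as Epcam and Cdh1, gave slopes in both directions. With all arrays 8 of 38 Hox genes (21.1%) rose with it and 12 (31.6%) fell, where 46.6% of all probes rose and 22.3% fell. Without the 8 arrays 3 rose (7.89%) and 15 fell (39.5%), where 12.6% and 37.3% of all probes did. Hoxa7 rose by 0.10 ± 0.03 per SD (adjusted p = 0.00518, limma) and by 0.11 ± 0.03 without the 8 arrays, and Hoxa11 rose by 0.08 and 0.06. Over 92 line means neither gene was called, with r = 0.101 for Hoxa7 and 0.139 for Hoxa11 (permutation, adjusted p = 0.581 and 0.421). Over 85 lines without the 8 arrays r was 0.093 and 0.065 (permutation, adjusted p = 0.588 and 0.676). Among the genes that fell in both fits were Hoxa13 (-0.15 ± 0.03 with all arrays, -0.06 ± 0.02 without the 8), Hoxd13 (-0.13 and -0.08), Hoxd10 (-0.14 and -0.13), Hoxc6 (-0.11 and -0.09), Hoxa4 (-0.10 and -0.04), Hoxc9 (-0.09 and -0.06) and Hoxd3 (-0.08 and -0.06). Over 92 line means the Pearson r of each of these genes was called. Over 85 lines without the 8 arrays, only Hoxd3 (r = -0.296) and Hoxd13 (-0.281) were still called (permutation, adjusted p = 0.0294 and 0.0430). Hoxa4, Hoxa13 and Hoxc9 then had r = -0.165, -0.151 and -0.121. With the mean of the receptor probes removed as well, these values were -0.067, -0.034 and -0.007. Hoxa2 rose by 0.10 with all arrays, and its slope was -0.03 and not called without the 8.

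The next comparison asked how Hox genes varied with each other. In each cluster the brightest probe was taken (Hoxa7, Hoxb7, Hoxc6 and Hoxd10), and limma was fitted for all other probes on its level and sex. With Hoxa7, 13 of the 37 other Hox genes (35.1%) rose, all of them among the 23 above background, where 5.06% of all probes and 11.0% of probes above background rose. The same number of Hox genes rose without the 8 arrays, where 5.87% of all probes did. Hoxd13 (-0.07) and Hoxc11 fell (5.41%), where 7.64% of all probes did. Without the 8 arrays 6 Hox genes fell (16.2%), where 19.5% of all probes did, and Hoxd13 (-0.05) was the only one of them above background while Hoxc11 was not among them.

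The genes that rose most with Hoxa7 were in another cluster. Per SD of Hoxa7, Hoxb4 rose by 0.39 ± 0.04 and Hoxb5 by 0.39 ± 0.04 (adjusted p = 2.46e-13 and 2.72e-17, limma), Hoxb6 by 0.28 ± 0.03, Hoxa5 by 0.23 ± 0.04, Hoxb3 by 0.23 ± 0.04, Hoxd4 by 0.20 ± 0.03 and Hoxa9 by 0.19 ± 0.03. Leaving out the 8 arrays, these slopes lay between 0.18 (Hoxa9) and 0.41 (Hoxb4) and all 7 were called. All 7 had an adjusted p under 0.05 within the low number series, and all but Hoxa5 (adjusted p = 0.0620) did within the high series. By cluster, 5 of 9 other Hoxa genes and 8 of 28 genes of the other clusters rose. With the stromal score as a covariate the slopes of Hoxb4 and Hoxb5 were both 0.39, and 13 Hox genes rose, where 5.19% of all probes did. Other markers moved with Hoxa7 as well. Of 10 epithelial markers 4 rose and none fell, and of 6 small intestinal markers above background 4 fell and none rose, with a median slope of -0.33 (-0.35 without the 8 arrays, with the same counts). Their part in the Hox slopes was not tested.

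Over 205 sex-centred mice, the r of Hoxb5 with Hoxa7 was 0.600, and none of the other probes above background had a higher one (0.00493% of them did without the 8 arrays). Hoxb4 (0.541) was exceeded by 0.0246% of these probes and Hoxb6 (0.538) by 0.0394%. Of named genes outside the Hox clusters, those most like Hoxa7 were Rhbdf1 (r = 0.561), Inava (0.552), Dock6 (0.545), Camta2 (0.539) and Fam160b2 (0.535). These ranks are descriptions over mice of shared lines.

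Hoxb7 and Hoxd10 formed a second set across clusters. Hoxd10 rose by 0.34 ± 0.03 per SD of Hoxb7 (adjusted p = 7.61e-23, limma) and by 0.33 ± 0.03 (adjusted p = 4.29e-23) without the 8 arrays. With the stromal score as a covariate the slope was 0.31 ± 0.02. Over 92 line means r was 0.652 and rho 0.552 (permutation p = 1e-05 each, adjusted p = 8.63e-05 and 6.57e-05 over 276 pairs), 0.518 without the 2 lines farthest in Hoxb7, 0.643 without the 8 arrays, 0.654 in the low series and 0.645 in the high series. The 2 lines lowest in Hoxb7 were also low in Hoxd10, as the plot of line means shows.

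In all, 23 of 37 Hox genes (62.2%) rose with Hoxb7, where 25.6% of all probes did, and 23 (62.2%) rose with Hoxd10, where 26.9% did, and in each case 14 of the 23 were above background. With Hoxd10, 4 Hox genes (10.8%) fell, where 33.1% of all probes did, and none fell without the 8 arrays. The count with Hoxb7 was 15 under quantile normalization and 13 within the high series. With Hoxc6, 21 (56.8%) rose and 8 (21.6%) fell, where 29.9% and 39.3% of all probes did. Without the 8 arrays the counts that rose were 30, 26 and 23, where 51.8%, 38.3% and 39.6% of all probes rose. All 8 other Hoxd genes rose with Hoxd10, both with all arrays and without the 8, although 3 of them (Hoxd1, Hoxd11 and Hoxd12) were below background and 4 of the 8 rose within the low series and 6 within the high series. Among the 8 were Hoxd4 (0.16 ± 0.03), Hoxd13 (0.14 ± 0.02), Hoxd8 (0.08 ± 0.03) and Hoxd9 (0.05 ± 0.02). With the stromal score as a covariate 6 of the 8 rose, where 26.3% of all probes did, and the slopes of Hoxd8 and Hoxd9 were 0.01 each and no longer called. With this covariate and without the 8 arrays all 8 rose, where 48.2% of all probes did, and the slopes of Hoxd8 and Hoxd9 were 0.11 (adjusted p = 0.00836, limma) and 0.03 (adjusted p = 0.0424). Of 9 smooth muscle markers 6 rose with Hoxd10 and none fell, with and without the 8 arrays. Of 9 fibroblast and matrix markers 5 rose and 3 fell, again in both fits. Of 10 epithelial markers 7 fell and 2 rose (6 and 2 without the 8 arrays). The part of these markers in the Hox slopes was not tested. With Hoxc6, 6 of 8 other Hoxc genes rose, led by Hoxc9 (0.22 ± 0.02, adjusted p = 6.72e-21, and 0.16 ± 0.02 without the 8 arrays), and 4 of 9 other Hoxb genes rose with Hoxb7.

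The named genes outside the clusters most like Hoxd10 were Pdzrn3 (r = 0.811 over 205 sex-centred mice), Meis2 (0.805), Hspb8 (0.762), Prkg1 (0.757) and Pdlim3 (0.742). Those most like Hoxb7 were Mpp6 (0.734), Endod1 (0.719), Csrp2 (0.716), Fam162a (0.695) and 1810065E05Rik (0.685). For Hoxc6 they were Egfr (0.672), Zhx1 (0.661), Tle4 (0.659), Arid1b (0.658) and Fnbp1l (0.656).

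**Figure D3:**
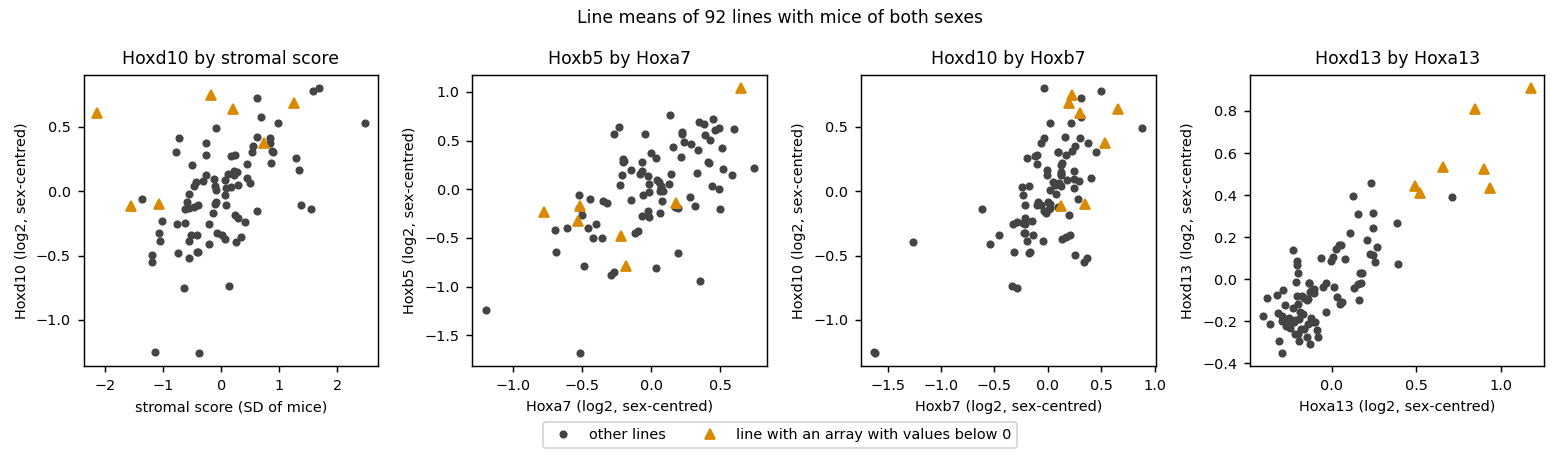
Line means of 92 lines, sex-centred, for Hoxd10 by stromal score, Hoxb5 by Hoxa7, Hoxd10 by Hoxb7 and Hoxd13 by Hoxa13 (log2 units, score in SD). Triangles are lines that hold 1 of the 8 arrays with values below 0, and they lie at the upper right of the Hoxa13 and Hoxd13 panel, where r was 0.858 with them and 0.719 without.

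All 276 pairs of the 24 genes above background were then correlated over line means, which share the arrays of their lines. The median r was 0.197 over 67 pairs of the same cluster (0.239 without the 8 arrays) and 0.110 over 209 pairs of different clusters (0.109 without the 8). Neighbours in a cluster, counted along all measured genes, had a median r of 0.255 over 15 pairs (0.323 without the 8 arrays), against 0.171 over 52 other pairs of the same cluster. Without the 8 arrays and with the receptor mean removed, the neighbours had 0.357 and the other pairs 0.186. The 18 pairs of a shared paralogue group had a median of 0.179, and of 0.100 without the 8 arrays. Within the clusters the medians were 0.447 for Hoxc (3 pairs), 0.223 for Hoxb, 0.197 for Hoxd and 0.049 for Hoxa (0.542, 0.239, 0.292 and 0.035 without the 8 arrays). Of the 26 pairs with r over 0.5, 9 were within a cluster and 17 between clusters.

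**Figure D4:**
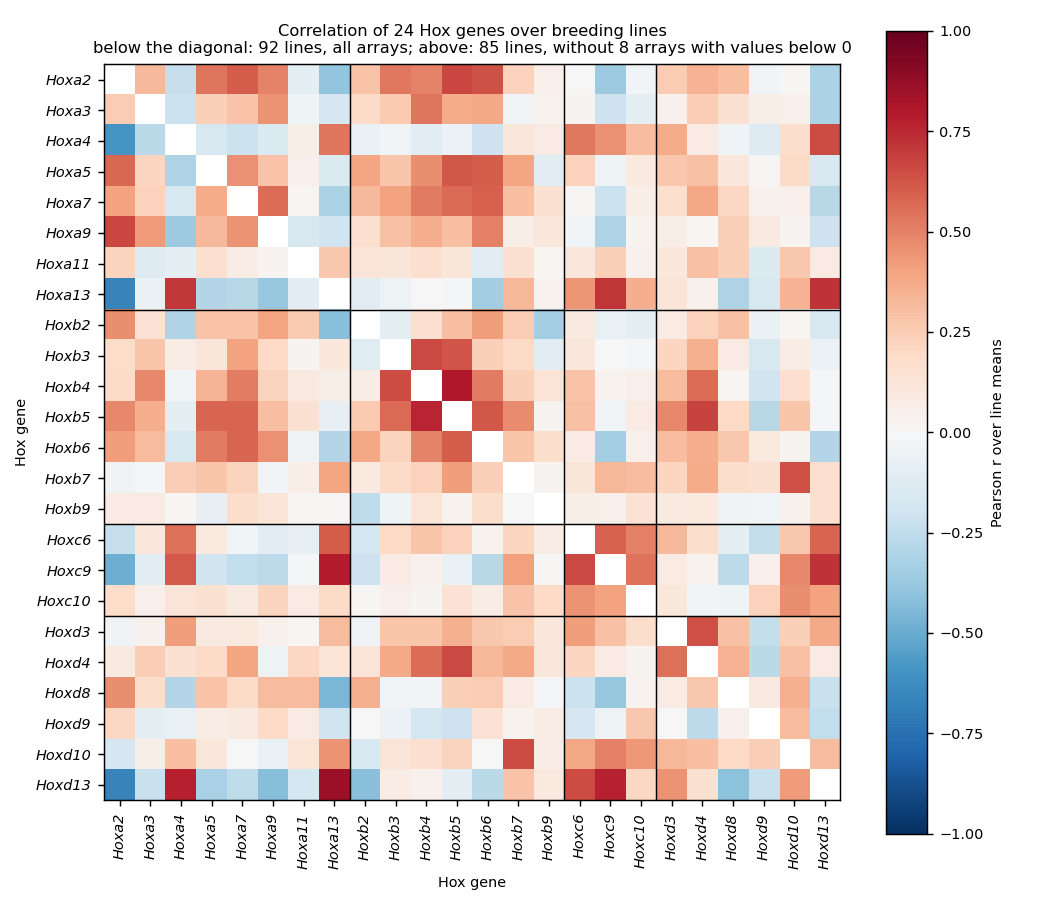
Pearson r over line means for each pair of the 24 Hox genes above background, ordered by cluster and paralogue group, with black lines between clusters. Cells below the diagonal are from 92 lines and cells above it from 85 lines without the 8 arrays, and among Hoxb3 to Hoxb6 r was between 0.499 and 0.764 in all pairs but that of Hoxb3 and Hoxb6 (0.223).

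The anterior to central Hoxb genes varied together. Hoxb4 and Hoxb5 had r = 0.764 and rho = 0.755 (permutation p = 1e-05 each, adjusted p = 8.63e-05 and 6.57e-05), 0.723 without the 2 farthest lines, 0.804 without the 8 arrays, 0.697 in the low series and 0.828 in the high series. Hoxb3 and Hoxb4 had r = 0.652, Hoxb5 and Hoxb6 had 0.605, and Hoxb3 and Hoxb5 had 0.569, with permutation p = 1e-05 and adjusted p = 8.63e-05 in each. Hoxb4 and Hoxb6 had r = 0.499 (permutation p = 1e-05, adjusted p = 8.63e-05), whereas Hoxb3 and Hoxb6 had 0.223 (adjusted p = 0.0730) and were not called. The set was joined by Hoxd4 (r = 0.657 with Hoxb5, 0.674 without the 8 arrays), Hoxa7 (0.585 and 0.569), Hoxa5 (0.584 and 0.618) and Hoxa2 (0.483 and 0.668). It did not extend along the whole cluster, as Hoxb2 and Hoxb9 had r = -0.252 (permutation p = 0.0152, adjusted p = 0.0375) and rho = -0.291.

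A further set held Hoxa13, Hoxd13, Hoxc9 and Hoxa4, whose means were 0.66 log2 units or less over the background threshold. The r of Hoxa13 and Hoxd13 was 0.858 (rho = 0.720, permutation p = 1e-05 each), with 0.828 without the 2 farthest lines, 0.850 in the low series and 0.888 in the high series. For Hoxa13 and Hoxc9 r was 0.788, for Hoxa4 and Hoxd13 it was 0.779, and for Hoxc9 and Hoxd13 it was 0.768. Hoxa2 ran opposite to this set, with r = -0.671 with Hoxa13 and -0.667 with Hoxd13.

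The mean of the receptor probes moved with this set. Over 85 lines without the 8 arrays its r was 0.771 with Hoxd13, 0.719 with Hoxa13, 0.650 with Hoxc9 and 0.649 with Hoxa4 (permutation p = 1e-05 each, adjusted p = 1.5e-04 over 120 relations), against -0.175 with Hoxb5 and 0.261 with Hoxd10, which were not called. Other genes were called as well, Hoxc10 (0.422) and Hoxc6 (0.380) with r above 0 and Hoxa3 (-0.507), Hoxb6 (-0.420), Hoxa9 (-0.355), Hoxa7 (-0.353), Hoxa2 (-0.348) and Hoxb4 (-0.281) with r below 0. Without the 8 arrays the r of Hoxa13 and Hoxd13 was 0.719, and with the receptor mean removed as well it was 0.372. That of Hoxb4 and Hoxb5 was 0.799 after the same steps, and that of Hoxa2 and Hoxd13 was -0.077.

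The line comparison asked whether mice of the same line were alike, which the intraclass correlation (ICC) measures as the share of variance between lines. With all arrays 1 of 38 Hox genes (2.63%) passed the F-test of line at an adjusted p under 0.05, where 6.0% of all probes did. This was Hoxb9, with an ICC of 0.301 (95% interval 0.106 to 0.475, adjusted p = 0.0290, F-test over all probes). The median ICC of the Hox genes above background was 0.096, against 0.080 for all probes above background, and the values ran from -0.113 to 0.301.

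Without the 8 arrays 5 Hox genes passed (13.2%), where 11.1% of all probes did. Hoxb2 then had an ICC of 0.446 (0.260 to 0.600, adjusted p = 1.99e-04), Hoxb6 0.355, Hoxb9 0.345, Hoxb3 0.334 and Hoxa3 0.295. The study left out probes over founder variants because these bias genetic comparisons. Such probes were kept here, and whether the called probes lie over a variant was not tested. Hoxb4 (0.074), Hoxb5 (0.082), Hoxb7 (0.039) and Hoxd10 (0.121) had intervals that included 0 and were not called. Within the low series (51 lines) no Hox gene passed, where 3.54% of all probes did, and within the high series (41 lines) Hoxb3 (0.484) and Hoxb6 (0.465) passed, where 2.97% did.

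**Figure D5:**
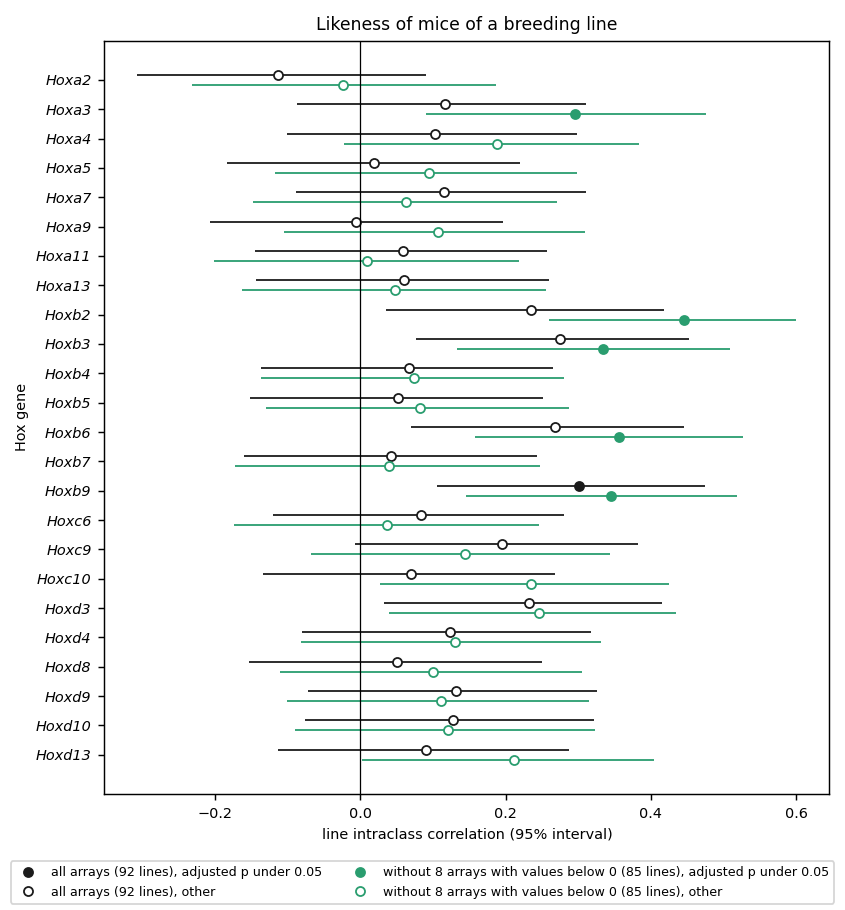
Line intraclass correlation (horizontal axis, with 95% intervals) of the 24 Hox genes above background for all arrays (92 lines, black) and without the 8 arrays (85 lines, green). Filled points had an adjusted p under 0.05, which was Hoxb9 with all arrays and Hoxa3, Hoxb2, Hoxb3, Hoxb6 and Hoxb9 without the 8.

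Genes that work with Hox proteins were measured on the same arrays. Of 10 TALE homeobox cofactors, 7 were above background, and 4 of these rose with the stromal score with all arrays and 2 without the 8, where 19.4% and 4.63% of probes above background did. The same shares stand behind the counts of the lists that follow. Those called in both fits were Meis1 (0.23 ± 0.02 with all arrays and 0.25 without the 8) and Meis2 (0.19 ± 0.03 and 0.21), which help Hox proteins to bind DNA. Per SD of Hoxd10, Meis2 rose by 0.35 and Meis1 by 0.27 (0.33 and 0.27 without the 8 arrays). With Hoxa7 their slopes were -0.05 and 0.03 and were not called.

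Of 8 Cdx, ParaHox and Evx genes, a group of regulators, neighbours and relatives of the Hox genes, 4 were above background and none was called with the stromal score in either fit. The intestinal epithelial factors Cdx1 and Cdx2 rose with Hoxa7, by 0.17 and 0.12 per SD of Hoxa7 (adjusted p = 3.6e-04 and 3.1e-04, limma) and by 0.18 and 0.12 without the 8 arrays. Of 11 gut mesoderm factors 5 were above background, and Foxf2 (0.18) and Nkx2-3 (0.17) rose with the stromal score, with 3 called without the 8 arrays. All 14 Polycomb genes, which keep Hox clusters silent, and all 9 Trithorax genes, which keep them active, were above background. With all arrays 3 Polycomb and no Trithorax genes rose with the stromal score, and none of either without the 8. Of 13 genes of retinoic acid signalling, which induces anterior Hox genes in the embryo, 8 were above background, and 4 rose with the score with all arrays and none without the 8.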

How the data were processed

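Cecal RNA was hybridised to Illumina mouse BeadChips, 1 array a mouse. The authors read them with BeadStudio 3.0.19 and applied rank-invariant normalization with no background subtraction, and the deposited table holds linear intensities of 45281 probes. The study removed probes over founder variants before its mapping, and they were not removed here. The 205 arrays had median intensities of 53.1 to 103.7 in females and 41.5 to 99.7 in males, and the floor of 16 applied to 0.768% of values. Arrays give no counts, so their number limits the precision.

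Probes were named through the platform annotation, with 34885 of 1 gene and 18 of several, which were not named. Limma 3.58.1 in R 4.3.3 was fitted over all probes with sex as a term, and line F-tests used sex-centred values. Adjusted p-values are Benjamini-Hochberg values. Correlations used line means with 100000 permutations in Python 3.11.15 and scipy 1.17.1. The line pairs the sexes only through a number in the labels, and the consensus correlation within lines was 0.0396. Mice of a line share ancestry but were not fully inbred, so p-values over mice treat related animals as independent. Scripts were tested on simulated data.

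Named are all Hox genes above background, the neighbours or paralogues of these, the 5 genes most like each cluster's brightest Hox probe, and list members called with the stroma. Sets of genes that varied together were named after their values were seen. The members and lists were chosen with earlier results of these data known. Alternatives were quantile normalization, subtraction of the 5th percentile, a floor of 32, means over the probes of a gene, leaving out the 8 arrays, the receptor mean, the other score or the number series as a term, the series apart, the line as a block, parts of the stromal score, and removal of 10 principal components. The last, and the series split at 100, are described with their results.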

Additional observations from a re-analysis of the deposited data

How the results depend on the processing

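The count of Hox genes above background was 23 or 24 in every setting, with Hoxa3 lost when all probes of a gene were averaged. No Hox gene was called between the sexes in any of 11 settings, and with the line as a replicate block the counts were 0 for sex, 9 up and 0 down for the stromal score. With Hoxa7, the rising count (13) became 7 within the high series, 9 within the low series, 10 with the 5th percentile subtracted and 16 with the receptor mean as a term. The falling count with Hoxa7 (2) became 6 without the 8 arrays and with the stromal score as a term as well, 1 within the low series and with the receptor mean as a term, and 0 under quantile normalization, with the 5th percentile subtracted, within the high series, and without the 8 arrays with the receptor mean. With Hoxb7, the rising count (23) became 15 under quantile normalization and without the 8 arrays with the receptor mean, and 13 within the high series, and the falling count (0) became 2 with the receptor mean. With Hoxc6, the falling count (8) became 5 under quantile normalization, 0 with the 5th percentile subtracted, 3 without the 8 arrays and with the stromal score as well, and 4 with a floor of 32, within each series, and without the 8 arrays with the receptor mean. With Hoxd10, the falling count (4) became 7 with the stromal score as a term, 1 without the 8 arrays with the receptor mean, and 0 with the 5th percentile subtracted, within the high series, and without the 8 arrays with or without the stromal score. The 8 Hoxd genes rising with Hoxd10 became 5 for means over probes, 4 within the low series, and 6 without the 8 arrays with the receptor mean. The counts of genes rising with the stromal score (9) became 5 under quantile normalization, 17 with the 5th percentile subtracted, 21 for means over probes and 3 within the low series. They became 4 with fibroblast and matrix markers alone and 13 with smooth muscle markers alone. They were 8 with the epithelial score as a term, 7 with a floor of 32, and 6 with the receptor mean, without the 8 arrays, and with both. The genes that fell with the stromal score (0) became 6 under quantile normalization, 3 for means over probes, and 1 without the 8 arrays, without them and with the receptor mean as a term, within the high series, and with smooth muscle markers alone. Genes rising with the epithelial score (8) became 2 with the 5th percentile subtracted, 3 without the 8 arrays and 17 for means over probes, and genes that fell with it (12) became 20 under quantile normalization, 20 with the 5th percentile subtracted and 5 within the low series. Genes with a line effect (1) became 5 under quantile normalization, 3 with the 5th percentile subtracted, 2 with a floor of 32, 5 without the 8 arrays, 7 with 10 principal components removed, 9 with both of these, 0 within the low series and 2 within the high series. Smaller changes of these counts in other settings are not all listed. The causes were not tested.

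The slopes of Hoxa2 turned: on the stromal score to -0.0112 without the 8 arrays and -0.0118 with the receptor mean as a term as well, and on the epithelial score to -0.0528 with the 5th percentile subtracted and -0.0260 without the 8 arrays. Of the other results and settings, 301 kept direction and side of the threshold, 32 lost the call, 23 gained one and 6 counts within clusters moved. The stromal slope of Hoxd8 was 0.06 (adjusted p = 0.403, limma) within the low series and 0.26 within the high series, while that of Hoxd10 was 0.21 and 0.31 and called in both. Of the alternatives, those that join 2 changes were chosen after seeing the data. Genes near the threshold (3 above and 8 below it by less than 0.15) are limited by the signal over background.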

Other observations

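The 2 mice without a usable label of sex had Hoxb7 levels of 9.26 and 9.95, Hoxa7 levels of 9.09 and 8.54, Hoxb5 levels of 6.82 and 8.08 and Hoxd10 levels of 7.43 and 8.50 on the log2 scale. Their Hoxd13 levels were 6.21 and 6.15, below the background threshold.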
